A study of Mus musculus with 2 samples.

Results

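The immediate-early and heat shock genes described here are 32 genes out of 33696 in the count matrices, namely 24 immediate-early genes and 8 heat shock genes, chosen by symbol and not by their values. The scRNA-seq data came from 2 libraries of thalamic CD45+ cells from C57B6/J mice, 1 given control Ab and 1 given anti-CD9 Ab, an antibody to the tetraspanin CD9. All mice had a cortical ablation injury (CAI) and received antibody at 1.0 µg/µl from day 7 to day 19, and the thalamus was taken on day 21. Their age is given as 12 weeks, without the day to which it refers. Both libraries carried the injury and an antibody, so neither was a sham or an untreated control. Pools of 4 mice are given in the methods for thalamic libraries in general, without a figure for these 2. No test was possible with 1 library per antibody, and an effect of the antibody cannot be told apart from one of the animals pooled or of the library. Values are summed UMIs of a gene per 1000000 UMIs of all genes in the same cell class (CPM), and every bracketed range is an exact 95% interval that covers counting error only. The question was how far UMIs of these genes differed between the antibodies in each cell type, since the genes are raised both by cell activation and by tissue dissociation.

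Immediate-early genes are transcribed within minutes of a stimulus from factors already present in the cell, with no need for new protein synthesis. Many encode transcription factors, such as the AP-1 subunits of the Fos and Jun families, and others encode phosphatases and RNA-binding proteins that shut the same response down. Heat shock genes encode chaperones that fold or hold damaged proteins, and the stress-inducible ones are driven by heat shock factor. In microglia and other immune cells both groups are also known to rise when tissue is dissociated into single cells.

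There were 12245 (control Ab) and 15173 (anti-CD9 Ab) barcodes, of which 7467 (61.0%) and 9162 (60.4%) passed the study's limits of 200 to 7500 genes and no more than 2% mitochondrial UMIs. The kept cells had medians of 1880 and 1419 UMIs, and 54 cell barcodes occurred in both libraries. Marker genes gave a class name to 18 of 25 clusters, and 9 classes had at least 50 cells in each library. Microglia-like cells numbered 1800 and 788 (control Ab and anti-CD9 Ab, respectively), T cell-like cells 2196 and 941, macrophage-like cells 262 and 1247, and neutrophil-like cells 63 and 2602. Astrocyte-like and oligodendrocyte-like cells were present despite the CD45 sort, and with control Ab *Ptprc*, which encodes CD45, stood at 138 CPM in the former and 513 CPM in microglia-like cells. The 7 unnamed clusters held 21.8% of control Ab cells (1630) and 28.3% of anti-CD9 Ab cells (2597).

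UMIs of neutrophil markers moved with the antibody also in classes named for other cells. The summed level of the 10 neutrophil markers was 533 and 1224 CPM in microglia-like cells (control Ab and anti-CD9 Ab, in this order here and below), 251 and 1591 in T cell-like cells, and 427 and 750.1 in macrophage-like cells. *S100a8* and *S100a9*, the alarmin genes of neutrophils, went from 65.8 to 526.5 CPM in microglia-like cells and from 176 to 1046 CPM in T cell-like cells. Predicted doublets made up 3.61% and 13.2% of microglia-like cells, and 6.97% and 12.96% of T cell-like cells. Values of these classes are therefore also given without predicted doublets and, in a setting added after the data were seen, without cells that carried an *S100a8* or *S100a9* UMI.

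Over all kept cells the 32 genes made up 0.373% (control Ab) and 0.572% (anti-CD9 Ab) of UMIs. The immediate-early genes stood at 2589 and 4059 CPM and the heat shock genes at 1141 and 1663 CPM, both higher with anti-CD9 Ab. Cell composition differed widely between the libraries, so the genes are described within each class.

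The immediate-early genes as a sum were lower with anti-CD9 Ab in microglia-like cells, higher in neutrophil-like, oligodendrocyte-like and astrocyte-like cells, and near equal in dendritic cell-like, macrophage-like and plasma cell-like cells. In microglia-like cells the sum was 3389 and 2370.0 CPM (30968 and 6689 UMIs), and the log2 ratio of anti-CD9 Ab to control Ab was -0.52 (-0.55 to -0.48). Microglia markers were lower in these cells too, at 12700.3 and 8423 CPM (-0.59, -0.61 to -0.57), as were T cell markers at 162 and 41.5 CPM (-1.97, -2.25 to -1.69), and their part in the result was not tested. In neutrophil-like cells it was 4840 and 13103 CPM (346 UMIs from 63 cells and 42162 UMIs), for a log2 ratio of 1.44 (1.28 to 1.59). Dendritic cell-like cells had 2901 and 2891 CPM, with a log2 ratio of -0.01 (-0.08 to 0.07), and plasma cell-like cells had 1628 and 1627 CPM. The dendritic cell-like class joined 2 clusters in unequal shares, cluster 16 (111 and 231 cells) at 2861 and 2442 CPM (-0.23, -0.31 to -0.14) and cluster 21 (17 and 160 cells) at 3373 and 3968 CPM (0.23, 0.02 to 0.46). T cell-like cells had 2522 and 2711 CPM, a log2 ratio of 0.10 (0.06 to 0.15) that became -0.13 without cells with an *S100a8* or *S100a9* UMI and -0.11 without predicted doublets. Their clusters went different ways, with 0.18 (0.12 to 0.24) in cluster 0 and 0.60 (0.51 to 0.69) in cluster 6. The ratio was 0.10 (-0.02 to 0.22) in cluster 17 and -0.41 (-0.56 to -0.25) in cluster 22. Neutrophil markers stood at 118 and 2406 CPM in cluster 6 and at 3170 and 227 CPM in cluster 22, and their part was not tested. Oligodendrocyte-like cells had 1066 and 2084 CPM, with their neutrophil markers at 183 and 5036 CPM. Astrocyte-like cells had 596 and 885 CPM (0.57, 0.22 to 0.91), with their neutrophil markers at 116 and 1717 CPM. The part of those UMIs in either result was not tested.

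The heat shock sum followed another pattern and was higher with anti-CD9 Ab in T cell-like, macrophage-like and astrocyte-like cells. T cell-like cells had 1469.5 and 2196 CPM and macrophage-like cells 1552 and 2319 CPM, with a log2 ratio of 0.58 (0.53 to 0.63) in each. Astrocyte-like cells had 298 and 548 CPM (0.88, 0.42 to 1.32) on 228 and 52 UMIs, beside the neutrophil markers given above. Microglia-like cells had 939 and 1032 CPM (log2 ratio 0.14, 0.08 to 0.20), dendritic cell-like cells 2575 and 2551 CPM, and neutrophil-like cells 504 and 537 CPM. Among 24 clusters with at least 10 cells in each library, the interval of the heat shock ratio lay above 0 in 15 and below 0 in 1, whereas that of the immediate-early ratio lay above 0 in 9 and below 0 in 9. All genes of a class had a median log2 ratio of -0.14 in macrophage-like, -0.10 in T cell-like, -0.13 in neutrophil-like and 0.14 in plasma cell-like cells, and within 0.1 of 0 in the other classes. Set against that median, the heat shock ratio was 0.72 in macrophage-like and 0.68 in T cell-like cells, and the immediate-early ratio 0.19 and 0.21.

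**Figure D1:**
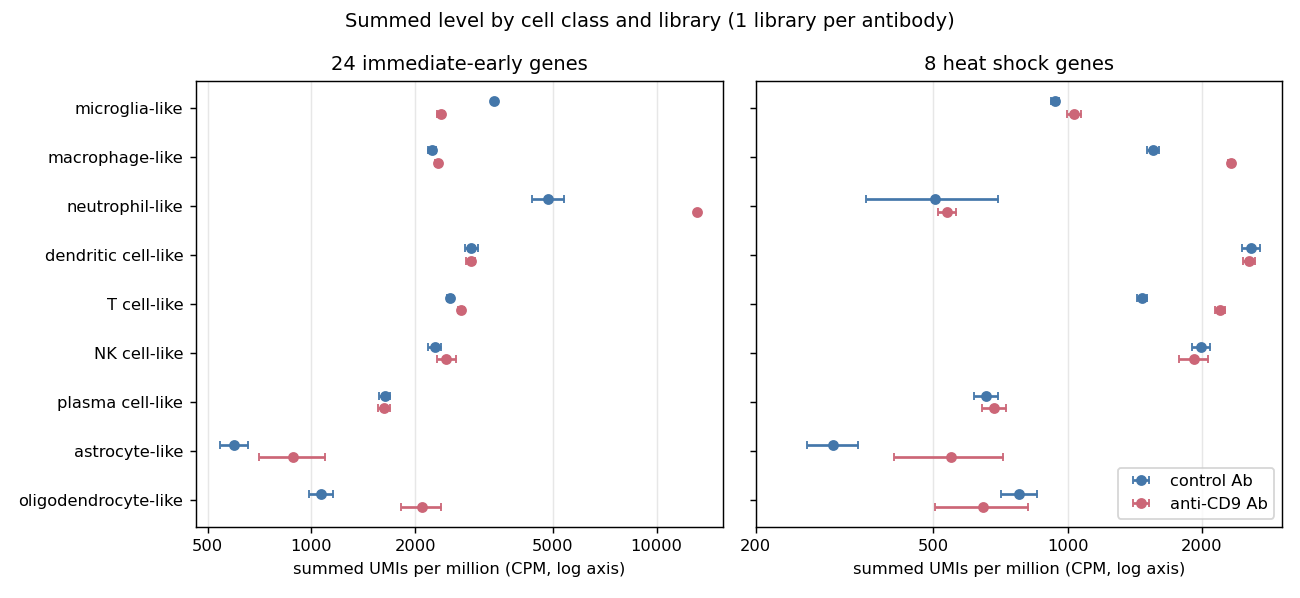
Summed CPM (log axis) of the 24 immediate-early genes and of the 8 heat shock genes in each of 9 cell classes, 1 point per library with its exact 95% counting interval. The immediate-early points of microglia-like cells lie at 3389 CPM with control Ab and 2370.0 CPM with anti-CD9 Ab, while those of neutrophil-like cells lie at 4840 and 13103 CPM.

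The order of the classes also differed between the libraries. With control Ab the immediate-early sum was highest in neutrophil-like cells, followed by microglia-like cells at 3389 CPM and dendritic cell-like cells at 2901 CPM, whose intervals did not overlap. With anti-CD9 Ab neutrophil-like cells were again highest, but microglia-like cells came after dendritic cell-like cells (2891 CPM) and T cell-like cells (2711 CPM), and their interval overlapped with those of NK cell-like and macrophage-like cells. For the heat shock sum, dendritic cell-like cells were highest in both libraries and microglia-like cells had less than macrophage-like and T cell-like cells in both.

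In microglia-like cells, 26 of the 32 genes had at least 50 UMIs over both libraries, and 6 of these were at least 2-fold lower and 4 at least 2-fold higher with anti-CD9 Ab. Of all 10851 genes with 50 UMIs in these cells, 4.12% were at least 2-fold lower and 3.5% at least 2-fold higher. The 6 genes below 50 UMIs were *Nr4a2*, *Nr4a3*, *Dusp5*, *Hspa1a*, *Hspa1b* and *Hspb1*. The 21 immediate-early genes that passed had a median log2 ratio of -0.51 and the 5 heat shock genes one of 0.24, against 0.01 for all genes.

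The AP-1 genes included 4 of the 6 genes that were at least 2-fold lower. *Jund*, a subunit that is present in resting cells, had 573 and 213 CPM (5233 and 601 UMIs), 2.69-fold lower with anti-CD9 Ab and a log2 ratio of -1.43 (-1.55 to -1.31). *Jun*, the founding Jun subunit, was at 506 and 207 CPM, 2.45-fold lower with a log2 ratio of -1.29 (-1.42 to -1.17). The counting intervals of the 2 libraries did not overlap for either gene, and *Jun* was detected in 68.4% of control Ab and 39.5% of anti-CD9 Ab cells before depth was equalized. *Fosb*, a Fos partner of Jun proteins, had 49.7 and 22.3 CPM (log2 ratio -1.15, -1.56 to -0.77), and *Atf3*, a stress-induced repressor of the same dimer family, had 77.5 and 35.4 CPM (-1.13, -1.45 to -0.83). *Fos* itself was lower by less, at 78.0 and 54.9 CPM (-0.51, -0.77 to -0.25). *Junb*, a Jun subunit that often opposes Jun, stood at 481 and 492 CPM and its log2 ratio of 0.03 had an interval that spanned 0 (-0.06 to 0.12). *Fosl2*, which encodes the Fos-related antigen Fra-2, went the other way on few UMIs (40 and 30), from 4.38 to 10.6 CPM (1.28, 0.55 to 2.00). The 7 AP-1 genes had a median log2 ratio of -1.13.

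Among the EGR, IER, KLF and NR4A genes, *Egr1*, *Egr2*, *Klf4*, *Ier2* and *Ier5* were lower, and *Ier3*, *Nr4a1* and *Klf6* were higher. *Egr1*, a zinc-finger factor induced by growth factor signals, had 177 and 117 CPM, a log2 ratio of -0.60 (-0.77 to -0.43). *Egr2* had 21.9 and 4.96 CPM (200 and 14 UMIs, log2 ratio -2.14, -3.04 to -1.36), and *Klf4*, a Krüppel-like factor of myeloid cells, had 18.3 and 4.25 CPM (167 and 12 UMIs, log2 ratio -2.10, -3.09 to -1.26). *Egr3* had only 57 and 11 UMIs, and its interval spanned 0. *Ier2* and *Ier5*, immediate early response genes that encode nuclear regulators, were at 82.95 and 46.4 CPM (-0.84, -1.12 to -0.57) and at 240 and 181 CPM (-0.40, -0.54 to -0.26). *Klf6* was slightly higher, at 131 and 163 CPM (0.32, 0.16 to 0.47), while *Klf2*, a factor of quiescent lymphocytes and endothelium, had 37.0 and 43.6 CPM with an interval that spanned 0 (0.24, -0.07 to 0.54). *Nr4a1*, an orphan nuclear receptor gene, had 43 and 34 UMIs, or 4.71 and 12.1 CPM (1.36, 0.66 to 2.04). Its relatives *Nr4a2* and *Nr4a3* had 20 and 5 and 5 and 17 UMIs, respectively. *Ier3*, which encodes a survival factor of the TNF and NF-κB response, was at 45.4 and 94.96 CPM, 2.09-fold higher with a log2 ratio of 1.06 (0.84 to 1.29).

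The genes that restrain the response did not move as a group. *Btg2*, an antiproliferative gene that promotes shortening of mRNA tails, had 586 and 335 CPM (5352 and 946 UMIs), a log2 ratio of -0.81 (-0.91 to -0.71). *Zfp36*, whose product tristetraprolin binds AU-rich mRNAs and speeds their decay, had 231 and 250.1 CPM, with an interval that spanned 0 (0.12, -0.01 to 0.24). *Dusp1*, the MAP kinase phosphatase of the nucleus, had 27.5 and 58.1 CPM, a log2 ratio of 1.08 (0.79 to 1.37). The phosphatase genes *Dusp2* and *Dusp5* had 52 and 22 UMIs and 23 and 13 UMIs.

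The heat shock UMIs of microglia-like cells came mostly from 3 chaperone genes. *Hspa8*, which encodes the constitutive Hsc70, and the HSP90 genes *Hsp90aa1* and *Hsp90ab1* supplied 8250 of 8576 heat shock UMIs (control Ab) and 2812 of 2913 (anti-CD9 Ab). *Hspa8* had 324 and 382 CPM (log2 ratio 0.24, 0.14 to 0.34), and *Hsp90aa1*, the stress-responsive HSP90 gene, had 99.6 and 118 CPM (0.24, 0.05 to 0.42). *Hsp90ab1*, the constitutive HSP90 gene, had 479 and 497 CPM (0.05, -0.04 to 0.14), *Dnajb1*, an Hsp40 co-chaperone gene, 21.997 and 19.1 CPM (-0.20, -0.66 to 0.24), and *Hsph1*, a nucleotide exchange factor gene, 7.33 and 9.92 CPM (0.44, -0.26 to 1.09), so that all 3 intervals spanned 0. The strongly inducible Hsp70 genes *Hspa1a* and *Hspa1b* had 21 and 9 and 24 and 10 UMIs, and *Hspb1*, the small heat shock protein gene, had 13 and 0.

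Microglia-like cells fell into 2 clusters that differed in some of these genes. Cluster 2, led by *Siglech* and *P2ry12*, had 934 and 436 cells, and cluster 4, led by *Lpl*, *Cst7* and *Igf1*, had 866 and 352. The immediate-early sum was 4423 and 2450.2 CPM in cluster 2 (log2 ratio -0.85, -0.90 to -0.80) and 2669 and 2284 CPM in cluster 4 (-0.22, -0.28 to -0.17). *Jun* had log2 ratios of -1.44 and -1.33 in clusters 2 and 4, *Jund* -1.56 and -1.38, *Btg2* -1.004 and -0.74, and *Egr1* -0.87 and -0.41, lower in both. In contrast, *Dusp1* was lower in cluster 2, at 31.98 and 15.7 CPM (-1.02, -1.74 to -0.37), and higher in cluster 4, at 24.3 and 104 CPM (2.09, 1.74 to 2.45). *Junb* (-0.37 and 0.39) and *Klf2* (-1.01 and 1.18) had the same opposite directions. Neutrophil markers stood at 621 and 686 CPM in cluster 2 and at 472 and 1802 CPM in cluster 4, and predicted doublets at 1.39% and 3.21% in cluster 2 and at 6.005% and 25.6% in cluster 4. In neutrophil-like cells with anti-CD9 Ab *Junb* stood at 2140 and *Klf2* at 766 CPM. The part of neutrophil UMIs and doublets in the cluster 4 ratios of these 2 genes was not tested.

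**Figure D2:**
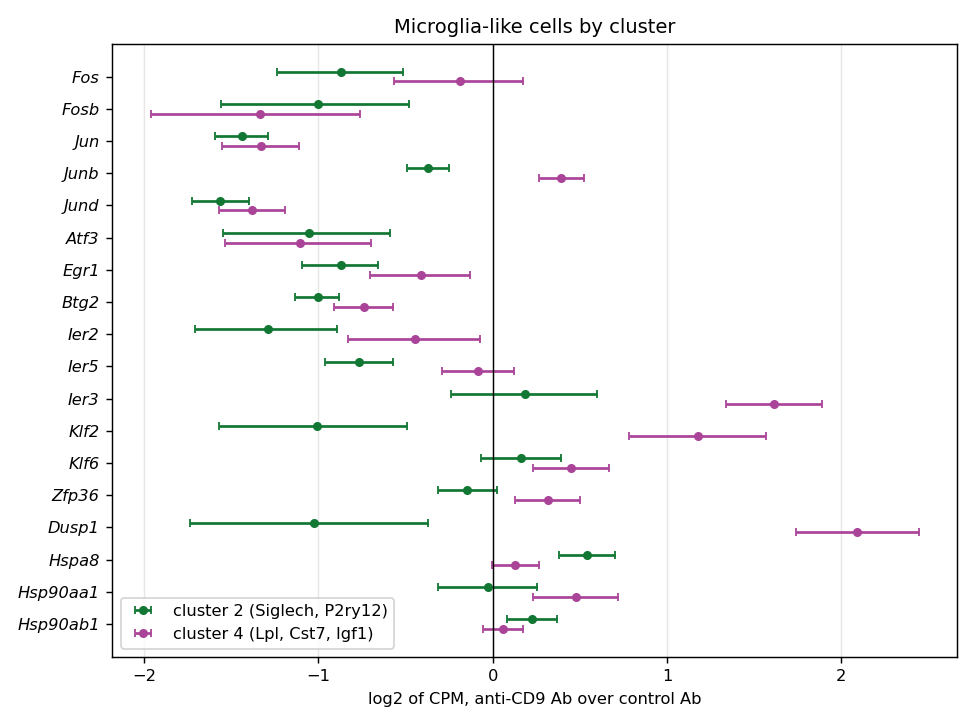
Log2 ratio of CPM (anti-CD9 Ab over control Ab) of single genes in microglia-like cluster 2 and cluster 4, with exact 95% counting intervals as bars and a line at 0. *Jun*, *Jund* and *Btg2* lie below 0 in both clusters, and *Dusp1* lies at -1.02 in cluster 2 and 2.09 in cluster 4.

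The values of *Jun*, *Jund* and *Btg2* moved little when cells with neutrophil UMIs or predicted doublets were left out, whereas that of *Dusp1* changed direction. Without the cells that carried an *S100a8* or *S100a9* UMI, 1727 and 606 microglia-like cells were left, and the log2 ratios were -1.34 for *Jun*, -1.45 for *Jund* and -0.86 for *Btg2*, close to the values in all cells. That of *Dusp1* was -0.10 (-0.58 to 0.36), and without predicted doublets it was -1.02 (-1.61 to -0.47). *Ier3* was at 0.88 and 0.54 in the same settings. In neutrophil-like cells of the anti-CD9 Ab library there were 5.71 *Dusp1* UMIs for every 100 UMIs of *S100a8* and *S100a9*, and in microglia-like cells of that library 11.04. The same ratio for *Ier3* was 4.35 in neutrophil-like and 18.0 in microglia-like cells. Microglia-like cells of the control Ab library had 41.8 for *Dusp1* and 69.1 for *Ier3*. A class's own UMIs of the gene also enter this ratio, so it does not give their source, which was not tested.

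**Figure D3:**
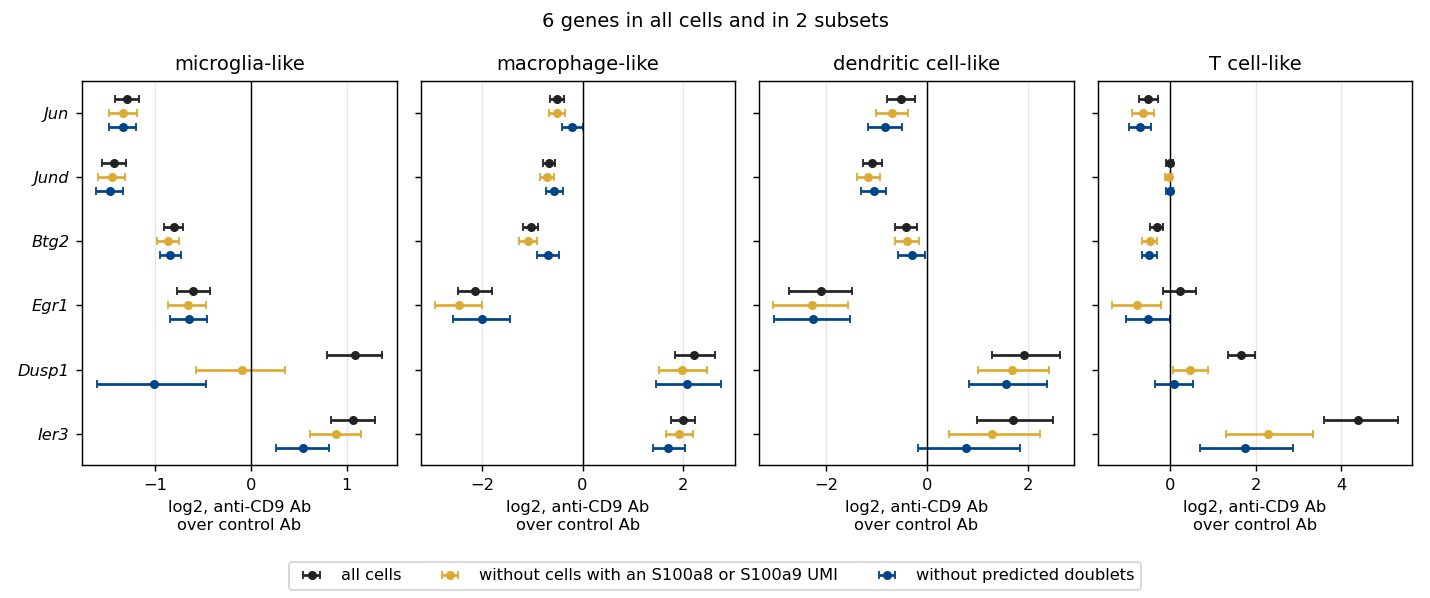
Log2 ratio of CPM (anti-CD9 Ab over control Ab) of 6 genes by class, in all cells, without cells that carried an *S100a8* or *S100a9* UMI and without predicted doublets, with exact 95% counting intervals. *Dusp1* in microglia-like cells moves from 1.08 to -0.10 and -1.02, while *Jun* stays between -1.34 and -1.29.

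Per cell, microglia-like cells with no immediate-early UMI were more frequent with anti-CD9 Ab, and cells with many were less frequent. After each cell was thinned to 1000 UMIs (1758 and 773 cells, with 42 and 15 shallower cells left out), the mean was 3.79 and 2.46 immediate-early UMIs, and the median 3 and 2. Cells with none made up 10.0% (8.65 to 11.5%) and 19.9% (17.2 to 22.9%), and cells with 10 or more made up 5.06% and 0.906%. *Jun* was detected in 38.3% and 18.2% of thinned cells, *Jund* in 40.4% and 16.4%, and *Fos* in 6.997% and 3.75%, against 3.18%, 4.24% and 1.41% of control Ab astrocyte-like cells thinned alike, whose median before thinning was 1265 UMIs. Without thinning, *Fos* was detected in 21.2% and 13.1% of microglia-like cells, at medians of 3064.5 and 3417 UMIs per cell. Among thinned cells with control Ab, *Jun* was found in 54.5% of 123 microglia-like cells with a *Fos* UMI and in 37.1% of the others. With anti-CD9 Ab these shares were 20.7%, of only 29 cells, and 18.1%. Immediate-early and heat shock UMIs of a cell had Pearson's r of -0.08 over 1758 control Ab cells and -0.01 over 773 anti-CD9 Ab cells, as a description over cells that share a library. Thinned cells held a mean of only 0.84 and 0.96 heat shock UMIs, and 44.5% and 42.0% had none. At such low counts r cannot decide whether the 2 groups of genes were related.

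**Figure D4:**
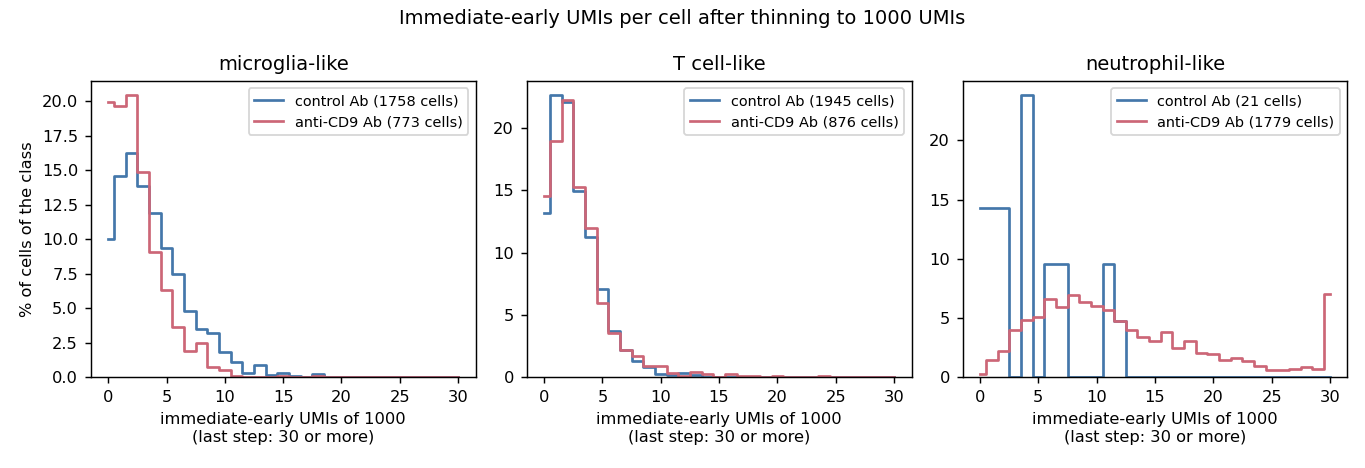
Share of cells (%) by the number of immediate-early UMIs after thinning each cell to 1000 UMIs, in 3 classes and 1 line per library. The microglia-like line of anti-CD9 Ab lies to the left of that of control Ab (medians 2 and 3), and the neutrophil-like line of anti-CD9 Ab has a median of 11.

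*Jun* and *Btg2*, which were lower in microglia-like cells in all settings tried, and *Dusp1*, whose direction changed with the setting, are shown by the 250 bases before their start in RefSeq (GRCm38.p6, a build other than the one named in the processing notes), to let their sequences be set side by side. Of the 32 genes, 26 had such a window. *Egr1*, *Egr3*, *Hsp90aa1*, *Hsp90ab1*, *Hspa8* and *Ier2* had none and were not searched. Capitals mark motifs searched on both strands, which were the cAMP response element TGACGTCA, the heat shock elements TTCNNGAA and GAANNTTC, the AP-1 site TGANTCA, the EGR site GCGNGGGCG and the CArG box. The heat shock elements can overlap each other, since both hold GAA and TTC.
Jun (chr4:95052223-95052472, minus strand): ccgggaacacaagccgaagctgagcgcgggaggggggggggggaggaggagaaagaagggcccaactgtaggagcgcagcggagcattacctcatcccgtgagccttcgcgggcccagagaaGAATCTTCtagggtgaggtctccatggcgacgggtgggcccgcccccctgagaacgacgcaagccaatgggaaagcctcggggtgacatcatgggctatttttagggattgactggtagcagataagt
Btg2 (chr1:134079156-134079405, minus strand): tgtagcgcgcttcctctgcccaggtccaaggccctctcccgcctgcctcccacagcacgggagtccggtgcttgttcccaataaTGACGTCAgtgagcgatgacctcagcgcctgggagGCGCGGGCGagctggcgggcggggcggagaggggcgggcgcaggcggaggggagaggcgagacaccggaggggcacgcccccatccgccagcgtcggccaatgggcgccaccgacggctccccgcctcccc
Dusp1 (chr17:26508473-26508722, minus strand): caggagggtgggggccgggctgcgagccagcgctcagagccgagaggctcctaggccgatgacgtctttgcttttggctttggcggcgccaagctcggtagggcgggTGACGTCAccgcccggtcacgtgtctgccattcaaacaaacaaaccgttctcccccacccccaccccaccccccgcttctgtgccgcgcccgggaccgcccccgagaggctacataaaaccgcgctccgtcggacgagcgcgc
The cAMP response element was in the windows of 2 of the 26 genes, *Btg2* and *Dusp1*, and in 1.77% of 27025 genes with a window. The EGR site was in 9 of 26 windows (*Btg2*, *Dusp2*, *Fosb*, *Fosl2*, *Klf2*, *Klf4*, *Nr4a1*, *Nr4a2* and *Zfp36*) and in 5.33% of all genes, and the CArG box, the site of serum response factor, was in 3 (*Dusp5*, *Egr2* and *Zfp36*) and in 1.62%. GAANNTTC was in 5 windows (*Fosl2*, *Hspa1a*, *Hspa1b*, *Hspb1* and *Jun*) and in 7.73% of all genes, TTCNNGAA in 2 (*Egr2* and *Hsph1*) and in 8.11%, and TGANTCA in 0 and in 7.82%. A match describes these letters in this window only. No link between these motifs and the ratios was tested.

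Macrophage-like cells had a near-equal immediate-early sum, 2235 and 2323 CPM (log2 ratio 0.06, 0.01 to 0.10), made of genes that moved in opposite directions. Of 26 genes with 50 UMIs, 6 were at least 2-fold higher and 4 at least 2-fold lower, against 6.87% and 11.1% of 9606 genes. The lower ones were *Egr2* (29.4 and 4.77 CPM; -2.62), *Egr1* (75.95 and 17.1 CPM; -2.15), *Fosb* (25.9 and 9.69 CPM; -1.42) and *Btg2* (272 and 133 CPM; -1.03). *Jund* (378 and 238 CPM; -0.67) and *Jun* (256 and 179 CPM; -0.51) were lower by less than in microglia-like cells. The higher ones were *Fosl2* (13.1 and 70.4 CPM; 2.42), *Dusp1* (23.1 and 108 CPM; 2.23), *Ier3* (64.8 and 259 CPM; 2.00), *Dusp5* (7 and 54 UMIs; 1.53), *Dusp2* (23.1 and 50.85 CPM; 1.14) and *Hsph1* (10.3 and 20.7 CPM; 1.00). *Dusp1* and *Ier3* kept ratios of 1.99 and 1.92 without cells with an *S100a8* or *S100a9* UMI, and 2.08 and 1.71 without predicted doublets. In the last setting *Jun* had -0.21 (-0.41 to 0.00455) and *Btg2* -0.69.

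Each heat shock gene of macrophage-like cells with 50 UMIs was higher with anti-CD9 Ab. *Hspa8* had 614 and 1055 CPM (0.78, 0.70 to 0.86), *Hsp90aa1* 132 and 219 CPM (0.73, 0.56 to 0.91), and *Hsp90ab1* 778 and 994 CPM (0.35, 0.28 to 0.43). Different clusters held most of the class in each library: cluster 8, led by *Apoc2*, *Gpnmb* and *Fabp5*, held 233 of 262 cells with control Ab, and cluster 9, led by *Slc7a2*, *Nos2* and *Saa3*, held 695 of 1247 with anti-CD9 Ab. Within cluster 8 the heat shock sum was 1514 and 2070.3 CPM (0.45), and within cluster 9 it was 2241 and 2539 CPM (0.18). In clusters 8 and 9 *Hspa8* was at 0.61 (0.52 to 0.71) and 0.07 (-0.17 to 0.31), and *Hsp90ab1* at 0.32 (0.24 to 0.41) and 0.22 (-0.04 to 0.50). *Hsp90aa1* had intervals above 0 in both (0.32 and 0.69). The immediate-early sum was lower within both, at 2178 and 1746 CPM in cluster 8 (-0.32, -0.37 to -0.26) and at 3270.1 and 2835 CPM in cluster 9 (-0.21, -0.34 to -0.06). *Dusp2*, higher over the class, was lower within cluster 8, at 21.8 and 10.2 CPM (-1.10, -1.79 to -0.44). Its interval spanned 0 in cluster 9 (0.94, -0.20 to 2.39), and that of *Dusp5* spanned 0 in both clusters. *Fosl2*, *Dusp1* and *Ier3* had intervals above 0 in both. Microglia markers stood at 5880.2 CPM in control Ab and 874 CPM in anti-CD9 Ab macrophage-like cells, and their part in these ratios was not tested.

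**Figure D5:**
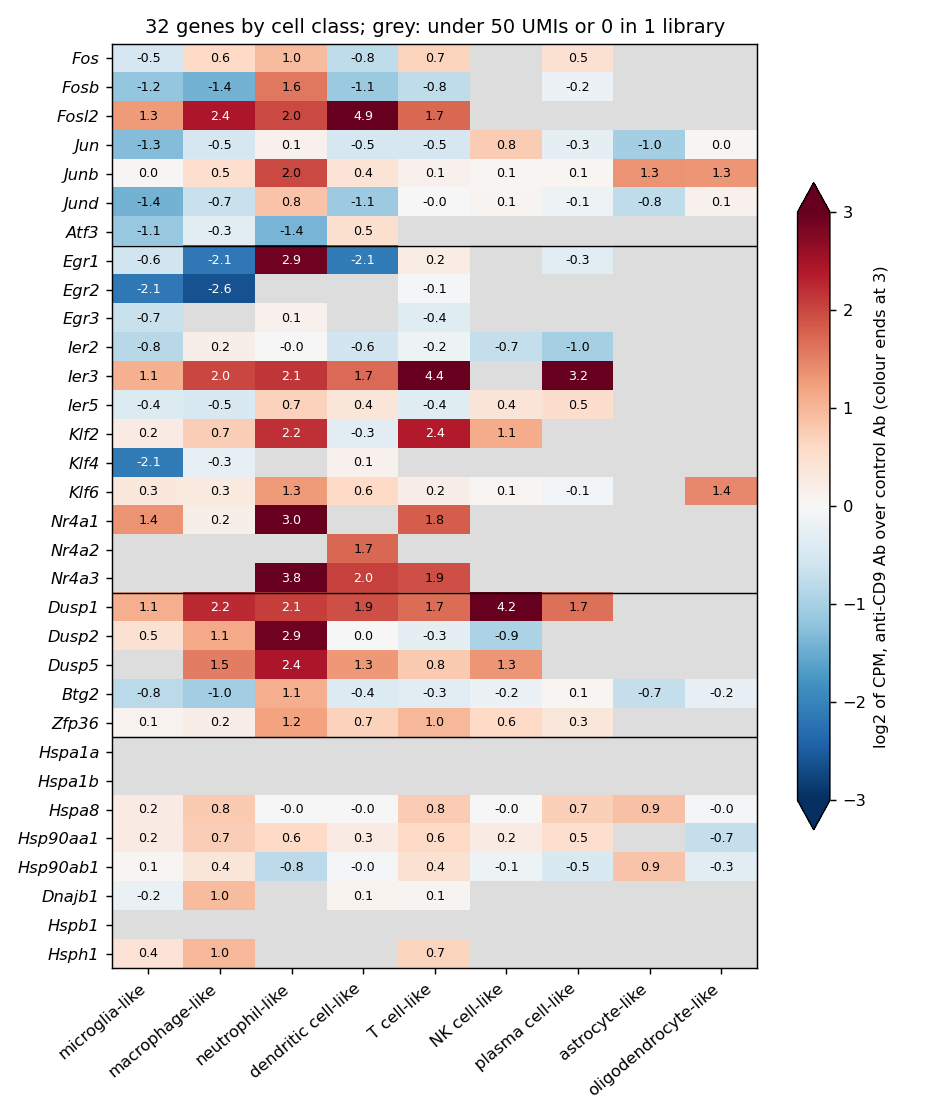
Log2 ratio of CPM (anti-CD9 Ab over control Ab) of the 32 genes (rows) in 9 cell classes (columns), red for higher and blue for lower, with the colour ending at 3 and grey for genes under 50 UMIs or at 0 in 1 library. *Jun*, *Jund* and *Btg2* are blue in microglia-like, macrophage-like and dendritic cell-like cells, and *Dusp1* is red in each of the 7 classes with a value.

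Neutrophil-like cells had the highest immediate-early sum of all classes in CPM, in both libraries. Of 25 genes with 50 UMIs, 14 were at least 2-fold higher with anti-CD9 Ab and 1 was at least 2-fold lower, against 13.3% and 20% of 5253 genes, and the control Ab values rest on 63 cells. *Junb* stood at 546 CPM with control Ab (39 UMIs) and 2140 CPM with anti-CD9 Ab (6885 UMIs), a log2 ratio of 1.97 (1.52 to 2.46). *Dusp1* had 448 and 1872 CPM (2.06, 1.57 to 2.61), *Ier3* 322 and 1428 CPM (2.15, 1.56 to 2.81), *Klf2* 168 and 766 CPM (2.19, 1.38 to 3.15) and *Zfp36* 588 and 1359 CPM (1.21, 0.77 to 1.68). *Egr1* had 5 and 1708 UMIs (2.92, 1.70 to 4.55), and the NR4A genes *Nr4a1* and *Nr4a3* had 2 and 737 and 1 and 624 UMIs, with log2 ratios of 3.03 (1.18 to 6.08) and 3.79 (1.31 to 9.10). *Jund*, lower in microglia-like cells, had 378 and 680.3 CPM here (0.85, 0.30 to 1.45), and *Jun* had 224 and 246 CPM with an interval that spanned 0 (0.14, -0.57 to 0.95). *Atf3* was the gene that was lower, at 294 and 111 CPM (-1.40, -2.04 to -0.69). The heat shock sum was 504 and 537 CPM (0.09, -0.38 to 0.61).

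The immediate-early sum was higher with anti-CD9 Ab in both neutrophil-like clusters, at 5922 and 12576 CPM in cluster 1 (12 and 1394 cells, log2 ratio 1.09) and at 4622 and 13834 CPM in cluster 3 (51 and 1208 cells, log2 ratio 1.58). *Junb*, *Ier3*, *Klf2*, *Zfp36* and *Egr1* had intervals above 0 in both clusters. Those of *Dusp1* (0.46, -0.27 to 1.30) and *Jund* (1.67, -0.19 to 4.71) spanned 0 in cluster 1. That of *Nr4a1* spanned 0 in cluster 3 (1.39, -0.49 to 4.46), and those of *Nr4a3* and *Dusp5* spanned 0 in both. Control Ab neutrophil-like cells had more UMIs of neutrophil markers (88401 against 43108 CPM) but also of microglia markers (1791 against 409 CPM). After thinning, 1779 anti-CD9 Ab cells had a median of 11 immediate-early UMIs and 56.3% (54.0 to 58.6%) had 10 or more, while only 21 control Ab cells were deep enough, with a median of 4. *Dusp1* was detected in 56.7% of the thinned anti-CD9 Ab cells. Pairs of genes were also correlated over these cells, heat shock genes included. Of 231 pairs of 22 genes, 20 had Pearson's r above 0.2, led by *Btg2* with *Fos* (0.48) and *Dusp1* with *Junb* (0.40). In microglia-like cells the count was 2 of 91 pairs (control Ab) and 0 of 66 (anti-CD9 Ab). The values of r join clusters 1 and 3, which differed with anti-CD9 Ab in *Fos* (40.6 and 719 CPM) and *Btg2* (494 and 1439 CPM). Thinned anti-CD9 Ab neutrophil-like cells also held a mean of 13.2 immediate-early UMIs, against 3.79 and 2.46 in microglia-like cells. The part of either difference in the counts of pairs was not tested.

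In T cell-like cells *Jund* was level, and 4 of the 5 heat shock genes with 50 UMIs were higher with anti-CD9 Ab. *Jund* had 841 and 835 CPM (-0.01, -0.09 to 0.07). *Hspa8* had 503 and 852 CPM (0.76, 0.67 to 0.85), *Hsp90aa1* 177 and 267 CPM (0.59, 0.44 to 0.74), *Hsp90ab1* 725 and 989 CPM (0.45, 0.37 to 0.52) and *Hsph1* 23.1 and 36.7 CPM (0.66, 0.24 to 1.09). *Dnajb1*, at 37.2 and 39.2 CPM, had an interval that spanned 0 (0.08, -0.29 to 0.44). The heat shock sum was higher in each of the 4 T cell-like clusters, with log2 ratios of 0.23, 0.46, 0.77 and 0.46 in clusters 0, 6, 17 and 22, and it was 0.61 without cells with an *S100a8* or *S100a9* UMI and 0.68 without predicted doublets. Cluster 22, whose leading genes included the cycling-cell markers *Ube2c*, *Birc5* and *Top2a*, held 42 of 2196 and 103 of 941 T cell-like cells. Its heat shock sum was 2336 and 3205 CPM. Single genes of T cell-like cells were not split by these clusters, and the part of their mix in the class ratios was not tested. *Hspa8* was detected in 38.5% and 48.6% of thinned T cell-like cells, and in 25.5% and 28.6% of microglia-like cells. Medians of UMIs per T cell-like cell were 1674.5 and 2370.0, and that of the mitochondrial share 1.25% and 1.53%.

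Of 26 genes with 50 UMIs in T cell-like cells, 6 were at least 2-fold higher and 0 at least 2-fold lower, against 4.24% and 2.51% of 9583 genes. The 6 were *Ier3* (3.20 and 67.5 CPM; 4.40), *Klf2* (11.6 and 60.6 CPM; 2.39), *Nr4a3* (6.89 and 26.5 CPM; 1.94), *Nr4a1* (7.39 and 26.1 CPM; 1.82), *Fosl2* (13.5 and 44.7 CPM; 1.72) and *Dusp1* (31.02 and 98.8 CPM; 1.67). In anti-CD9 Ab neutrophil-like cells *Klf2* stood at 766, *Fosl2* at 329, *Nr4a1* at 229 and *Nr4a3* at 194 CPM. The part of neutrophil UMIs in the T cell-like ratios of these genes was not tested. Without predicted doublets *Dusp1* had a log2 ratio of 0.10 (-0.34 to 0.54) and *Ier3* 1.75, and without cells with an *S100a8* or *S100a9* UMI they had 0.47 (0.06 to 0.88) and 2.29. For every 100 UMIs of *S100a8* and *S100a9* in the anti-CD9 Ab library there were 9.44 *Dusp1* UMIs in T cell-like and 5.71 in neutrophil-like cells. T cell-like cells of the control Ab library had 17.6, and this ratio does not give the source of the UMIs. *Jun* (133 and 93.7 CPM; -0.50, -0.72 to -0.29), *Btg2* (246 and 199 CPM; -0.31, -0.46 to -0.15) and *Dusp2*, a phosphatase gene of activated lymphocytes (264 and 219 CPM; -0.27, -0.42 to -0.13), were lower.

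Dendritic cell-like cells, taken as 1 class, shared the lower *Jund* and *Egr1* of microglia-like and macrophage-like cells. The class joined cluster 16 (111 and 231 cells) and cluster 21 (17 and 160 cells). Single genes were not split by these clusters, and the part of their mix in the ratios was not tested. *Jund* had 574 and 271 CPM (-1.08, -1.28 to -0.88), *Egr1* 89.5 and 20.7 CPM (-2.11, -2.75 to -1.49), *Fos* 125 and 73.5 CPM (-0.77, -1.17 to -0.36) and *Jun* 243 and 171 CPM (-0.51, -0.79 to -0.23). *Nr4a3* was higher, at 22.7 and 93.6 CPM (2.04, 1.30 to 2.88), as were *Nr4a2* (12.8 and 42.1 CPM; 1.72, 0.71 to 2.91), *Dusp1* (31.2 and 119 CPM; 1.93, 1.29 to 2.64) and *Dusp5* (29.8 and 73.5 CPM; 1.30, 0.63 to 2.04). *Fosl2* had 1 and 73 UMIs (4.93, 2.41 to 10.3). Neutrophil markers in these cells stood at 449 and 967 CPM, and *Dusp1* was at 1.69 (1.02 to 2.43) without cells with an *S100a8* or *S100a9* UMI and at 1.57 (0.84 to 2.39) without predicted doublets. In NK cell-like cells *Dusp2* was lower (358 and 186 CPM; -0.94, -1.34 to -0.56), while *Ier3* (6 and 32 UMIs) and *Dusp1* (6 and 47 UMIs) were higher, beside neutrophil markers at 57.5 and 946 CPM.

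Plasma cell-like cells, with a level immediate-early sum, had *Ier2* lower (104.9 and 52.8 CPM, log2 ratio -0.99) and *Fos* higher (83.0 and 114 CPM, 0.46, 0.11 to 0.80). Their heat shock sum was also level, but *Hspa8* was higher (144 and 237 CPM, 0.72, 0.47 to 0.97) and *Hsp90ab1* lower (400.4 and 292 CPM, -0.45, -0.64 to -0.27). In astrocyte-like cells *Junb* had 73 and 23 UMIs (1.35, 0.60 to 2.04), while *Jun* had 49 and 3 UMIs and an interval that spanned 0 (-1.02, -3.34 to 0.61). Oligodendrocyte-like cells had *Dusp1* at 3 and 29 UMIs and *Junb* at 69 and 33 UMIs (1.33, 0.68 to 1.95). Both glial classes had fewer than 100 cells with anti-CD9 Ab, and neutrophil markers in astrocyte-like cells stood at 116 and 1717 CPM.

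*Fos*, a widely used marker of recent activation, had no common direction. It was lower in microglia-like (-0.51) and dendritic cell-like cells (-0.77) and higher in macrophage-like (0.60, 0.37 to 0.84), neutrophil-like (0.95, 0.14 to 1.91), T cell-like (0.67, 0.10 to 1.24) and plasma cell-like cells (0.46). In neutrophil-like cells *Fos* went from 168 to 324 CPM on 12 and 1044 UMIs, and in T cell-like cells from 12.8 to 20.3 CPM. Within neutrophil-like cluster 1 *Fos* had 1 and 76 UMIs (-1.04, -3.56 to 4.28), and within cluster 3 it was higher (1.96, 1.11 to 2.97). *Zfp36* was higher in T cell-like cells (48.7 and 96.96 CPM, 0.99, 0.72 to 1.26) and in dendritic cell-like cells (136 and 220.4 CPM, 0.69, 0.37 to 1.03). *Klf6* was higher in dendritic cell-like (0.60), macrophage-like (0.29) and neutrophil-like cells (1.27). Within macrophage-like clusters 8 and 9 *Fos* was at 0.51 (0.23 to 0.79) and -0.24 (-0.90 to 0.51). There *Klf6* was at 0.22 (0.02 to 0.43) and -0.38 (-0.90 to 0.19). *Zfp36*, above 0 over that class (0.20, 0.03 to 0.37), was at -0.41 (-0.63 to -0.19) in cluster 8 and 0.07 (-0.47 to 0.67) in cluster 9. Fewer classes had intervals above 0 when cells with neutrophil UMIs or predicted doublets were left out. The first of these settings left only 6 control Ab neutrophil-like cells, beside 291 with anti-CD9 Ab. Intervals above 0 for *Fos* numbered 4 of 6 classes in all cells, 2 of 5 without cells with an *S100a8* or *S100a9* UMI and 2 of 5 without predicted doublets, those for *Zfp36* 4 of 7, 2 of 6 and 1 of 6, and those for *Klf6* 6 of 8, 2 of 7 and 2 of 6. In T cell-like cells *Fos* was at -0.99 (-1.99 to -0.09) and *Zfp36* at 0.04 (-0.33 to 0.40) without cells with an *S100a8* or *S100a9* UMI.

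Across the 9 classes, with all cells taken, the genes fell into those with one direction and those with both. *Dusp1* had an interval above 0 in 7 of 7 classes with 50 UMIs, *Ier3* in 6 of 6, *Fosl2* in 5 of 5, *Dusp5* in 5 of 5 and *Nr4a3* in 3 of 3. The clusters within a class did not all share this. *Dusp5* spanned 0 in both neutrophil-like and both macrophage-like clusters, and *Nr4a3* in both neutrophil-like clusters. *Dusp1* was below 0 in microglia-like cluster 2, where *Ier3* and *Fosl2* spanned 0. *Fosb* had an interval below 0 in 4 of 6 classes and *Ier2* in 4 of 7, with none above 0 for either. *Jun*, *Jund* and *Btg2* each had 4 of 9 below and 1 above. Without cells with an *S100a8* or *S100a9* UMI, *Dusp1* was above 0 in 3 of 5 classes, *Ier3* in 3 of 3 and *Fosl2* in 2 of 2, while *Jun* was below 0 in 5 of 9, *Jund* in 4 of 8 and *Btg2* in 6 of 9, with none above. That setting left only 6 control Ab neutrophil-like cells, beside 291 with anti-CD9 Ab, but the class could still enter these counts. In all cells it was the class above 0 for *Jund* and *Btg2*. *Hspa8* was above 0 in 5 of 9 classes and below in none, in all cells and without cells with an *S100a8* or *S100a9* UMI. Set against the median of all genes in each class, *Dusp1*, *Ier3*, *Fosl2*, *Hspa8* and *Btg2* had the same counts as in all cells, *Jun* was below in 5 and *Jund* above in 2. Without predicted doublets *Dusp1* was above 0 in 3 of 5 classes and below 0 in 1. In that setting *Ier3* and *Fosl2* were each above 0 in 3 of 4 classes, and *Dusp5* and *Nr4a3* each in 3 of 3.

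Genes of related responses, listed with earlier results of these data known, gave the background of the module in microglia-like cells. Of all genes in these cells, 3.5% were at least 2-fold higher and 4.12% at least 2-fold lower. Of 34 other immediate-early genes 27 had 50 UMIs, and of these 5 were at least 2-fold higher and 1 at least 2-fold lower, with a median log2 ratio of 0.22. *Sgk1*, a kinase gene of the glucocorticoid response, was lower (349 and 165 CPM; -1.08), and *Gadd45b* (8.76 and 103 CPM; 3.56) and *Socs3*, a feedback inhibitor gene of cytokine signalling (28.0 and 164 CPM; 2.55), were higher. Of 16 NF-κB early response genes, 5 were at least 2-fold higher and 0 lower, with a median of 0.68, and *Il1b* had 27.2 and 226 CPM (3.05) and *Cxcl2* 3.83 and 378 CPM (6.62), beside the neutrophil marker levels given above. Of 26 other chaperones and cochaperones, 0 were 2-fold higher or lower, with a median of 0.08 and a range from *Fkbp4* (-0.85) to *Hspe1* (0.47). Of 9 genes of the integrated stress response, 2 were higher and 1 lower, with a median of 0.09. In neutrophil-like cells 16 of 18 NF-κB genes were at least 2-fold higher, with a median of 2.86, and in macrophage-like cells 11 of 18, with a median of 1.22. The other chaperones had medians of -0.04 in macrophage-like, 0.10 in T cell-like and 0.39 in neutrophil-like cells, beside 0.78, 0.59 and -0.01 for the heat shock genes of the 32.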

How the data were processed

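Thalamic CD45+ cells were profiled by 10x Genomics Single Cell 3′ v3.1, and the authors deposited raw UMI counts per gene and barcode for 1 library per antibody. Per the processing notes, counts were made with Cell Ranger 8.0.0, and the build differs between the sources used here. Barcodes with 200 to 7500 genes and no more than 2% mitochondrial counts were kept. Cells were clustered in Seurat 5.3.0 (R 4.3.3) after anchor integration (2000 variable genes without the listed genes, 30 PCs, resolution 0.8). A cluster was named where at least 50% of a type's markers, and at least 3, were raised by at least 1 on the log2 scale (pseudocount 20 CPM). Each such marker had to be found in at least 10% of the cluster's cells. No more than 50% of its cells could be predicted doublets. No other type, cycling cells aside, could have more markers among the cluster's leading genes. A cluster of low depth with no marker of its type among its leading genes stayed unnamed. These limits were set after the data were seen. Doublets were scored against simulated ones, marking 0.8% per 1000 barcodes.

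UMIs were summed per class and library, divided by the class total, and compared as log2 ratios with conditional binomial intervals (Python 3.11.15, SciPy 1.17.1). PCR copies were removed by UMI, and intervals cover counting error only. A gene at 0 in 1 library took its bound against 3 counts. No test was run, and the depth range was 38042608 to 40825201 UMIs per library. The script was tested on simulated data. All 32 genes are named, and of each other list those with the 3 highest and 3 lowest ratios in microglia-like cells, of which some are quoted. The genes and lists were chosen with earlier results of these data known. Alternatives are given in the closing section. *Hspa1a* and *Hspa1b* are paralogs with 86.8% identical transcripts, so the split of their UMIs may be uncertain in part.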

Additional observations from a re-analysis of the deposited data

Results flagged for a closer look

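The immediate-early sum went in opposite directions in 2 classes, with a log2 ratio of anti-CD9 Ab to control Ab of -0.52 in microglia-like cells and 1.44 in neutrophil-like cells, and *Jund* had -1.43 and 0.85 in the same classes. *Dusp1* had -1.02 in microglia-like cluster 2 and 2.09 in microglia-like cluster 4. In cluster 4 predicted doublets made up 6.005% (control Ab) and 25.6% (anti-CD9 Ab) of cells and neutrophil markers stood at 472 and 1802 CPM, and there *Dusp1* was at 0.73 (0.13 to 1.30) without cells with an *S100a8* or *S100a9* UMI and at -0.71 (-1.67 to 0.12) without predicted doublets. Each class held 1 library per antibody, so these differences were not tested.

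Among cells that entered no comparison by class, the unnamed cluster 7 of the anti-CD9 Ab library (881 cells, led by *Hilpda*, *Gdf15* and *Gadd45b*, with 4 cells in the control Ab library) had *Hspa1a* and *Hspa1b* at 381 CPM (342 to 424), against 10.0 CPM in the other cells of that library and 5.29 CPM in all cells with control Ab. The 346 UMIs lay in 43 cells (4.88%), 4 of which held at least 50% of them, and made up 61.3% of the *Hspa1a* and *Hspa1b* UMIs of the library. These inducible Hsp70 genes sit side by side, and the 250 bases before their starts (RefSeq, GRCm38.p6) were 98.8% identical, with the heat shock element GAANNTTC in capitals.
Hspa1a (chr17:34972157-34972406, minus strand): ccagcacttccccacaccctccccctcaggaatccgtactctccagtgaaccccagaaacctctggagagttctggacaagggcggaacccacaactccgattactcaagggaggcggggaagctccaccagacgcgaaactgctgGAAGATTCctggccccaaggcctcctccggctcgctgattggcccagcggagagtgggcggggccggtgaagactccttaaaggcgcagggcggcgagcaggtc
Hspa1b (chr17:34959239-34959488, minus strand): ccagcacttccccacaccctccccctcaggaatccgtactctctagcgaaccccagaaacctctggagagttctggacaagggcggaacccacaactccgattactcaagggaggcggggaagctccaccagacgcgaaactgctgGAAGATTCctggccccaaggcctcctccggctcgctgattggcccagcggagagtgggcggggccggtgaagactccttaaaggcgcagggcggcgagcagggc
Their whole transcripts (2967 and 2803 bases) were 86.8% identical and the last 500 bases, nearest to the reads of a 3′ library, 53.6%.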

How the results depend on the processing

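No paired analysis was possible because each antibody had 1 library. In microglia-like cells the immediate-early log2 ratio (-0.52) was negative in every setting tried: -0.47 with 20 PCs, -0.69 without integration, -0.67 without predicted doublets, -0.62 without cells with an *S100a8* or *S100a9* UMI, -0.63 with every cell weighted alike and -0.46 without the most abundant gene. *Jun* ranged from -1.44 to -1.24, *Jund* from -1.52 to -0.98 and *Btg2* from -0.92 to -0.74. The heat shock ratio (0.14) was -0.080 without integration, which left 163 anti-CD9 Ab cells, 0.24 with up to 5% mitochondrial counts, 0.32 with equal weights and 0.22 without the most abundant gene. The 4 genes at least 2-fold higher became 2 at 200 UMIs and 0 without integration, without predicted doublets or without cells with an *S100a8* or *S100a9* UMI, while those at least 2-fold lower numbered 5 to 8. The share of all genes past 2-fold was taken only in the main setting, so the counts of the other settings have no background beside them. Without integration *Fosl2* was -0.80, *Klf6* -0.075 and *Hspa8* -0.27; *Dusp1* was -1.02 without predicted doublets and -0.10 without *S100a8* or *S100a9* cells. Over all settings, 250 values for single genes stayed inside their counting interval and 27 moved out of it. A further 5 changed direction, counted only for genes whose interval in the main setting excluded 0. Genes whose interval spanned 0 also changed sign: the lowest values were -1.82 for *Klf2*, -2.53 for *Dusp2*, -0.40 for *Junb* and -0.16 for *Zfp36*.

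In macrophage-like cells the immediate-early ratio (0.06) was 0.34 with 20 PCs, 0.36 with another seed, 0.34 with the listed genes kept, 0.55 without integration, 0.28 with equal weights, 0.19 centred on all genes, -0.022 without *S100a8* or *S100a9* cells and -0.026 without the most abundant gene. The heat shock ratio (0.58) was 0.43, 0.48, 0.47, 0.34, 0.45 and 0.72 under the first 6 of these, 0.49 with up to 5% mitochondrial counts, 0.51 without predicted doublets and 0.78 without the most abundant gene. In T cell-like cells the immediate-early ratio (0.10) was 0.16 with 20 PCs, 0.21 centred and 0.16 without the most abundant gene, but -0.047 with the listed genes kept, -0.052 without integration, -0.19 with up to 5% mitochondrial counts, -0.11 without predicted doublets and -0.13 without *S100a8* or *S100a9* cells. The heat shock ratio (0.58) was 0.68 centred, 0.48 with equal weights, 0.45 with up to 5% mitochondrial counts, 0.68 without predicted doublets and 0.70 without the most abundant gene. Beyond what a setting's own construction shows, the cause of these moves was not tested. Depth limits the control Ab neutrophil-like cells (346 immediate-early UMIs) and genes such as *Nr4a2* and *Dusp5*.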

Other observations

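The sums of both groups of genes differed between barcodes split by their mitochondrial share. The splits also differ in cell type, since the median share with control Ab ran from 0.132% in astrocyte-like to 1.40% in NK cell-like cells, and no split within a class was made. With control Ab the immediate-early sum was 2454, 2694, 2204 and 1398 CPM in barcodes with 0 to 1%, 1 to 2%, 2 to 5% and over 5% mitochondrial UMIs, and the heat shock sum was 997, 1253, 1384 and 1228 CPM. With anti-CD9 Ab the immediate-early sum was 6536, 2604, 2129 and 1542 CPM and the heat shock sum 1202, 1934, 2001 and 1455 CPM, beside neutrophil markers at 17078, 1830.2, 998 and 1075 CPM.

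Clusters outside the 9 classes gave further values. Cluster 12, nearest to microglia, had an immediate-early sum of 3312 CPM with control Ab and 1529 CPM with anti-CD9 Ab (log2 ratio -1.12, -1.30 to -0.94). Cluster 15 had 376 and 1758 CPM (2.22, 1.98 to 2.46), beside neutrophil markers at 158 and 3106 CPM. B cell-like cells (33 and 100 cells) had a heat shock sum of 2119.5 and 1333 CPM, the only one of 24 clusters whose heat shock interval lay below 0 (-0.67, -0.92 to -0.41).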
